A study of Mus musculus with 18 samples.

Results

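The effect of pregnancy on mouse muscle stem cells was compared before and after muscle injury, as the difference between 2 differences. For each gene, the difference between pregnant and non-pregnant mice in non-activated cells was subtracted from the same difference in activated cells, on the log2 scale of the deposited normalized counts. This quantity is called the interaction here: it is above 0 where pregnancy raised a gene more, or lowered it less, after injury than at rest, and below 0 in the reverse case. All 18 satellite cell libraries entered, and 10792 of the 47729 genes listed had values, of which 10751 passed a filter of at least 10 normalized counts in at least 3 libraries and were tested.

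RNA was sequenced from cells sorted out of hind-limb muscle; the mice were of the C57BL/6 strain and 8.5 to 9 months old. Cells were sorted for VCAM1 and against CD31, CD45 and Sca1. There were 3 non-activated libraries from virgin mice, 3 non-activated libraries from pregnant mice, 6 activated libraries from virgin mice and 6 activated libraries from pregnant mice. Activated cells are read from the protocols as those of muscle pierced with a 23-gauge needle. Libraries of uninjured animals were made from ribosome-depleted total RNA and those of injured animals from poly-A RNA with another kit, so a kit effect that is equal in both kinds of mice cancels in the interaction, while every direct comparison of a resting with an activated level crosses the kits. The labels do not give the time after injury, the stage of pregnancy or whether each library is a separate animal, so p-values measure the spread between these libraries, which may be technical.

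Satellite cells lie quiescent along muscle fibres and are marked by the transcription factor Pax7. On injury they leave quiescence, raise the muscle-lineage factor Myod1, divide, and later either fuse into fibres under Myog or return to quiescence. Leaving quiescence also brings ribosome production, mitochondrial growth and remodelling of the surrounding matrix. Whether pregnancy changes the resting state or the injury response of these cells is the question the 4 groups address.

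Total counts per library were 14043324 to 24336842. The sorted cells carried satellite cell markers in every group, with 13 of 15 listed markers holding values. Their summed normalized count was 144000 to 164000 at rest and 181000 to 214000 at rest in pregnancy. The markers did not move together: 8 of the 13 had resting estimates above 0, and their median resting difference was 0.14. Pax7 was lower at rest in pregnancy, at 11241 to 11668 normalized counts against 14481 to 20831. Vcam1, the gene of the sort marker, was higher, at 16900 to 30247 against 9673 to 14855. Over 12 of 19 endothelial markers the sum was 11000 to 13400 at rest and 22000 to 23400 at rest in pregnancy. Of these 12, 5 had resting estimates above 0, and their median resting difference was -0.38. The part of such cells in the resting results was not tested. Libraries of a group correlated across genes at r = 0.872 to 0.95 at rest and 0.977 to 0.994 after injury. The fitted variance was correspondingly larger at rest: the factor was 2.97 for resting non-pregnant and 4.87 for resting pregnant libraries, against 0.558 and 0.471 for the activated groups. The median standard error (SE) of a resting pregnancy difference was 0.41 on the log2 scale, and that of an activated pregnancy difference 0.10. The error of the interaction (median 0.42) is therefore almost that of its resting side. Leukocyte markers moved with pregnancy after injury. Their summed normalized count over the 11 of 28 listed markers with values was 2360 to 10800 in activated pregnant libraries, 1170 to 1760 in activated non-pregnant libraries, 215 to 374 at rest and 97.7 to 284 at rest in pregnancy. The other 17, including Ptprc, the gene of CD45, held no values.

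An interaction was called for 12 genes, which is 0.112% of the genes tested, by limma with Benjamini-Hochberg adjusted p under 0.05 and 1 variance factor per group. Of these, 5 lay above 0 and 7 below (41.7% above 0), and with CPM (counts scaled to the library total) in place of the authors' scaling 15 were called, 53.3% of them above 0. The shares of all genes tested were 0.0465% above and 0.0651% below 0. At an unadjusted p under 0.05 there were 1510. The pregnancy difference itself was called for 72 genes at rest (0.67% of those tested, 0.335% higher and 0.335% lower) and for 2929 after injury (27.2%, 14.8% higher and 12.4% lower). The difference between activated and resting cells, which crosses the kits, was called for 66.7% of genes without pregnancy (36.4% higher, 30.3% lower) and for 56.8% with it (31.9% higher, 24.9% lower). The authors' deposited table lists 2812 genes at adjusted p under 0.05 for the same resting comparison and 1036 for the activated one. Those values come from the authors' own test, not from the fit used here. The order of such counts depended on the fit: with a common spread it was also reversed, as given in the section on processing. Of the 2929 genes called after injury, 2397 (81.8%) had a 95% interval of the resting difference that also held the activated estimate. Leaving out 1 library moved the count of 12 widely: it was 64 without resting non-pregnant replicate 1, 2 without replicate 2 of that group, 54, 19 and 42 without resting pregnant replicates 1, 2 and 3, 20, 5 and 4 without activated replicates 1, 5 and 6, and 43 without activated pregnant replicate 1. With the summed leukocyte marker level of a library as a covariate, 1 gene was called, Angptl4. That level did not overlap between the activated groups, so the covariate also takes up the pregnancy difference itself. Fits with it, here and below, therefore cannot tell leukocyte content from pregnancy. Angptl4 was also the one gene of the 12 that stayed called without resting non-pregnant replicate 2.

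**Figure D1:**
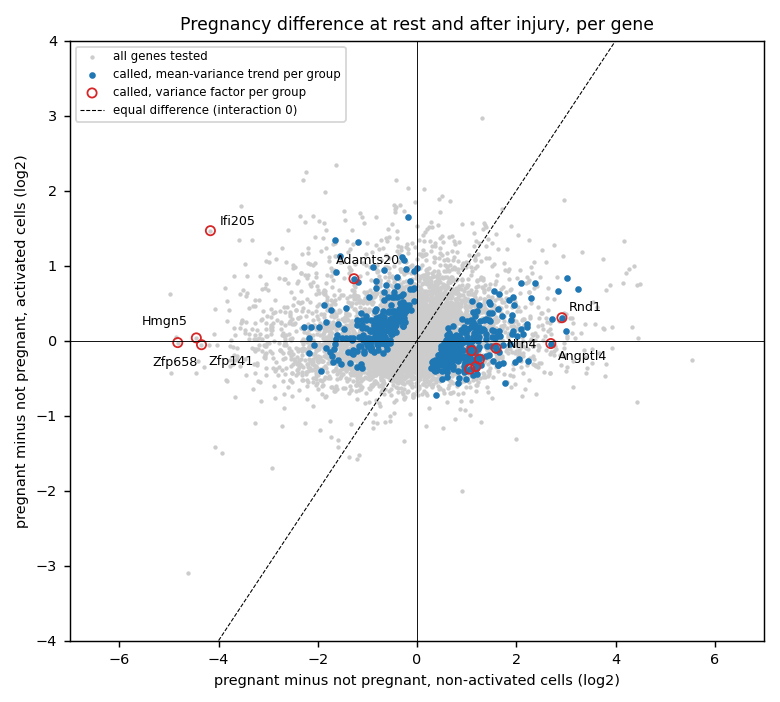
Each point is 1 of the 10751 genes tested, with the log2 pregnancy difference in non-activated cells on the x axis and that in activated cells on the y axis; the dashed line marks an interaction of 0. Blue points are the 487 genes called with a mean-variance trend per group and red circles the 12 called with a variance factor per group, and the 4 genes with the lowest resting differences among the red circles, Zfp658, Hmgn5, Zfp141 and Ifi205, carry no blue point.

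Angptl4, a secreted inhibitor of lipoprotein lipase (ENSMUSG00000002289, GRCm38 chromosome 17, 33773750 to 33781575, minus strand), had the most stable interaction of the 12. Its resting non-pregnant libraries held 407, 426 and 593 normalized counts and its resting pregnant libraries 2350.3, 2726 and 4393. Activated libraries ranged from 3512 to 4909 (median 3805) and activated pregnant libraries from 3487 to 4164 (median 3877). The resting groups did not overlap, while the activated groups covered nearly the same range. Angptl4 was thus 6.64-fold higher in pregnancy at rest, a log2 difference of 2.70 ± 0.29 (SE, limma adjusted p = 0.000234), against -0.04 ± 0.08 after injury (adjusted p = 0.735). The interaction was -2.73 ± 0.30 (adjusted p = 0.000308), and it remained called in 18 of 18 fits with a library left out.

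Zadh2, a zinc-dependent alcohol dehydrogenase family member also described as a prostaglandin reductase (ENSMUSG00000049090, chromosome 18), showed a like pattern at a lower level. Resting libraries held 388, 411 and 476.5 normalized counts without pregnancy and 771, 1146 and 1178 with it, and activated libraries 975 to 1203 (median 1089) without and 792 to 991 (median 922) with it. Its resting difference was 1.26 ± 0.26 (limma adjusted p = 0.0345) and its activated difference ran the other way, at -0.25 ± 0.07 (adjusted p = 0.0108). The interaction was -1.50 ± 0.27 (adjusted p = 0.0329) and was called in 13 of 18 fits with a library left out.

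Angptl4 and Zadh2 were the 2 called genes whose resting pregnant level lay near the activated level. The position of the resting pregnant level was expressed as the resting pregnancy difference over the activation difference in non-pregnant mice, so that 0% is the resting level without pregnancy and 100% the activated level; it was 88.0% for Angptl4 and 92.6% for Zadh2. This position crosses the kits.

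Ntn4, Etfa, Rnd1, Sox9 and Vmp1 were also higher in pregnancy at rest, with levels above those of activated cells. Ntn4, a netrin that is secreted into basement membranes (ENSMUSG00000020019, chromosome 10), held 1710.2, 1339 and 2014 normalized counts at rest and 5865, 4561 and 4739 at rest in pregnancy. Its activated libraries held 1107 to 1257 (median 1192) and its activated pregnant libraries 864 to 1268 (median 1130.5). The resting pregnant libraries stood above all others, at 3.00-fold the resting level, the resting libraries lay above the activated ones, and the interaction was -1.69 ± 0.31 (limma adjusted p = 0.0392).

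Rnd1, a protein that loosens actin-based adhesion (ENSMUSG00000054855, chromosome 15), rose from 238, 244 and 361 normalized counts to 1273, 3598 and 1998, an 8.15-fold difference at rest, while activated libraries held 385 to 495 and activated pregnant ones 425 to 623. The resting pregnant libraries stood apart and spread widely. The interaction of Rnd1 was -2.61 ± 0.43 (limma adjusted p = 0.0188), with a smaller pregnancy difference of 0.31 ± 0.11 after injury (adjusted p = 0.039). The call was lost without resting pregnant replicate 2 and without resting non-pregnant replicate 2, and stood in 16 of 18 fits with a library left out.

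Etfa, a subunit of the flavoprotein that carries electrons from fatty acid oxidation to the respiratory chain (chromosome 9), held 1791, 1600.4 and 2003 normalized counts at rest and 4202, 4028 and 3334 at rest in pregnancy, 2.14-fold more. Its activated groups lay at 2194 ± 192 and 1995 ± 108 (SD, n = 6 each), and its activated difference of -0.13 did not pass the test (adjusted p = 0.0898). The interaction was -1.23 ± 0.23 (limma adjusted p = 0.0442).

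Sox9, a transcription factor best known from cartilage (chromosome 11), and Vmp1, a membrane protein of the endoplasmic reticulum needed for autophagy (chromosome 11), had estimates of opposite sign at rest and after injury. Sox9 held 2415, 1689 and 2033 normalized counts at rest and 4658, 4194 and 4989 at rest in pregnancy, but 2832 to 3133 (median 3023) after injury and 2044 to 2605 (median 2400.3) after injury in pregnancy. Neither pair of groups overlapped: pregnancy raised Sox9 by 1.18 ± 0.24 at rest and lowered it by a change of -0.35 ± 0.06 after injury, both called, with an interaction of -1.53 ± 0.24 (limma adjusted p = 0.0177). Vmp1 held 1677, 1777 and 1645 normalized counts at rest against 3592, 4362 and 2840.3 in pregnancy, and 1932 to 2238 after injury against 1336 to 1860.4. Its resting difference of 1.06 ± 0.27 missed the threshold (adjusted p = 0.0669), its activated difference was -0.38 ± 0.07 and its interaction -1.44 ± 0.27 (adjusted p = 0.0455). Vmp1 overlaps the gene of microRNA Mir21a, and no source used here says whether counting kept the strands apart.

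Adamts20 was the one abundant gene with an interaction above 0. It encodes a secreted metalloprotease that cleaves versican (ENSMUSG00000022449, chromosome 15, 94270163 to 94465418, minus strand). Resting libraries held 2404, 2358 and 1952 normalized counts and resting pregnant libraries 897, 1140.5 and 766. Activated libraries held 353 to 538 (median 419), and activated pregnant libraries 645 to 880.0 (median 738). It lay 2.40-fold lower in pregnancy at rest (adjusted p = 0.117 in the main fit) and 1.77-fold higher in pregnancy after injury, without overlap in either pair. Its interaction was 2.10 ± 0.39 (limma adjusted p = 0.0392).

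The other interactions above 0 were those of Hmgn5, Zfp141, Zfp658 and Ifi205, and they rest on low counts. Hmgn5, a nucleosome-binding protein (chromosome X), held 104, 108 and 114 normalized counts at rest but 22.3, 0 and 4.44 at rest in pregnancy, while its activated groups lay at 378 ± 31.8 and 389 ± 46 (SD, n = 6 each). Its interaction was 4.49 ± 0.68 (limma adjusted p = 0.0135). The zinc finger genes Zfp141 and Zfp658 fell from 34.6 to 79.7 and from 50.5 to 108 normalized counts to 12.9 and 13.3 or fewer at rest. Both had nearly equal activated groups, with activated differences of -0.05 and -0.03. Ifi205, a member of the interferon-induced HIN-200 family (chromosome 1), held 54.0, 90.0 and 24.9 normalized counts at rest, 21.5, 0 and 0 at rest in pregnancy, 28.7 to 51.4 after injury and 79.2 to 172 after injury in pregnancy. It lay lower in pregnancy at rest without passing the test (-4.17 ± 1.05, adjusted p = 0.0678) and higher in pregnancy after injury, by 1.47 ± 0.27 (adjusted p = 0.000979). Ifi205 was called in 6 of 18 fits with a library left out. None of these 4 passed with a mean-variance trend per group, where their adjusted p was 0.0551 to 0.168. Zfp141 overlaps a pseudogene, Gm19246, and zinc finger genes of this family have close relatives with which reads can be shared.

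**Figure D2:**
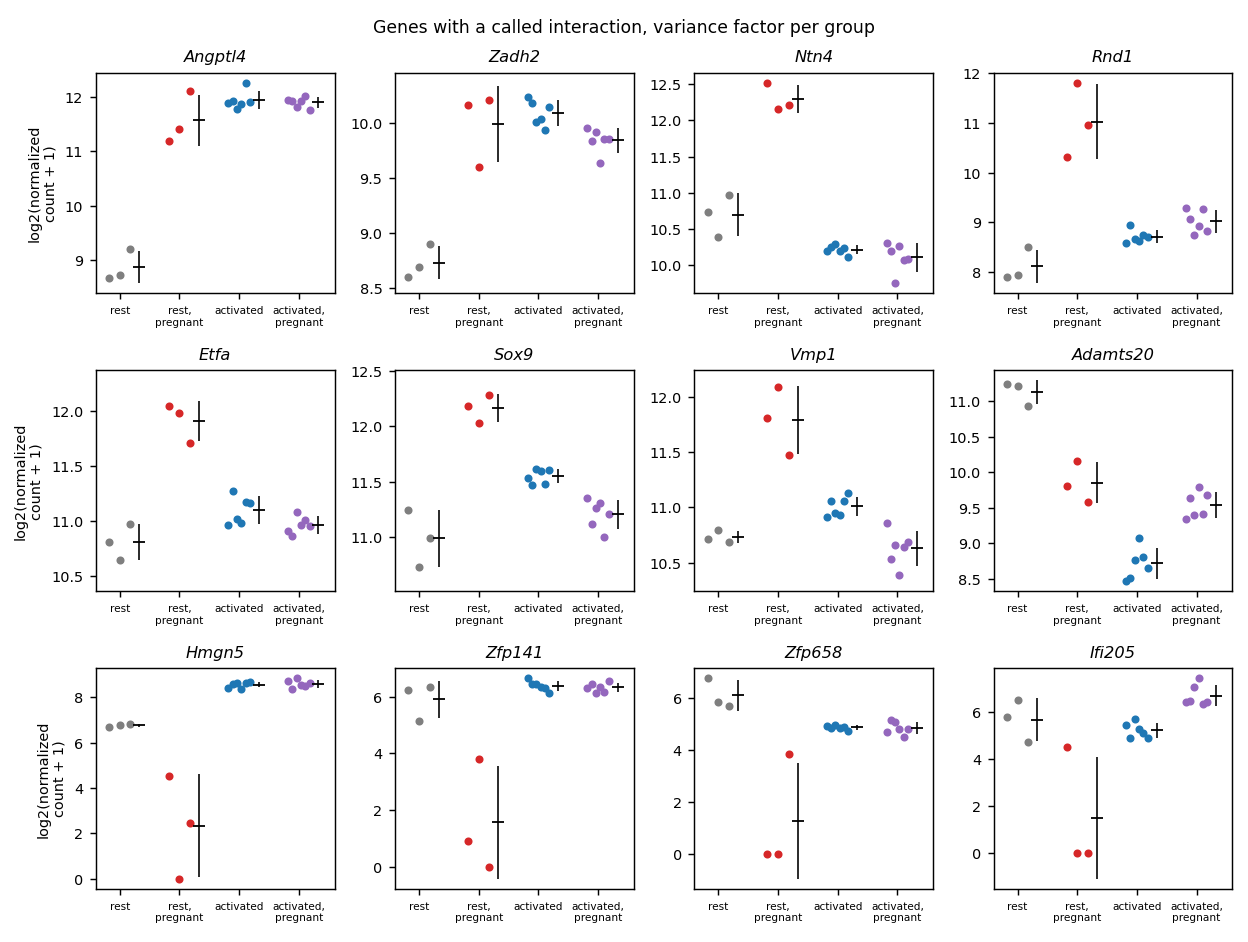
Each panel shows 1 of the 12 called genes as log2 of the normalized count plus 1, with 1 point per library (n = 3 at rest, n = 6 activated, each with and without pregnancy) and the group mean ± SD beside the points. In the first 7 panels the resting pregnant libraries stand above the resting ones, and in the 4 panels of the bottom row they include values at or near 0.

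The variance factor treats all genes of a group alike. A fit with a separate mean-variance trend in each group was therefore added after the data had been seen. It called 487 interactions, 4.53% of the genes tested, with 218 above 0 and 269 below (44.8% above 0), and 638 resting pregnancy differences (5.93%, 3.57% higher and 2.36% lower). It called the activated pregnancy difference for 25.3% of genes (13.8% higher, 11.4% lower). Activated and resting cells differed for 68.3% without pregnancy (34.8% higher, 33.6% lower) and for 59.3% with it (29.5% higher, 29.8% lower). It shares 8 of its calls with the 12. Scaling to CPM turned the split to 66.8% above 0 among 609 calls, and quantile normalization to 53.5% among 641. The count was 967, 300, 742, 323 and 772 without resting replicate 1, resting replicate 2 and resting pregnant replicates 1, 2 and 3, in that order, and 94 with the leukocyte covariate, of which 59 were among the 487. The estimates of the genes named are the same in both fits, and only the errors differ; errors printed after ± are those of the main fit unless stated, and adjusted p-values from the added fit are named as such.

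Under the added fit, 60 genes had a resting pregnant level that approached the activated level, by the rule that the interaction, the activation difference and a resting difference in the same direction were all called, the activation difference was at least 1 on the log2 scale, and the position lay between 0.5 and 1.5 as a ratio. Of the 60, 37 were higher in pregnancy at rest and 23 lower, with a median position of 0.782 and a median activated pregnancy difference of 0.15 in size. Calls of all 3 kinds are part of the rule, so these counts are a description. With the leukocyte covariate the class held 37 genes, and 40 to 125 with 1 library left out.

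Tnc, the matrix protein tenascin-C that is deposited around regenerating fibres (ENSMUSG00000028364, chromosome 4, 63959785 to 64047015, minus strand), led the higher genes. Its resting libraries held 1039.7, 633 and 1082 normalized counts, its resting pregnant libraries 6299, 9457 and 6112, its activated libraries 4654 to 10081 (median 5213) and its activated pregnant libraries 4020.0 to 8234 (median 6693). The resting pregnant libraries thus lay within the range of activated cells, at a position of 110%, and 7.94-fold above the resting libraries. The interaction of -2.87 ± 0.41 (SE of the added fit) was called by the added fit (limma adjusted p = 0.000766) and not by the main one (adjusted p = 0.0923). Tnc is also on the list of tendon cell markers, whose summed normalized count over 10 of 12 markers was 2410 to 2730 at rest and 9180 to 12500 at rest in pregnancy. Without Tnc itself the sum over 9 markers was 1370 to 2050 at rest and 3040 to 3730 at rest in pregnancy; the part of such cells in the result was not tested.

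Ccl2, the chemokine that draws monocytes (ENSMUSG00000035385, chromosome 11), held 508, 179 and 333 normalized counts at rest and 2114, 4934 and 2509 at rest in pregnancy. Activated libraries held 1392 to 2151 (median 1878) and activated pregnant libraries 2069.6 to 4053 (median 2881). Resting pregnant cells reached the level of activated pregnant cells, and pregnancy raised Ccl2 again after injury, by 0.69 ± 0.15 (limma adjusted p = 0.00302), less than at rest (3.25 ± 0.58, adjusted p = 0.0189). The interaction had an adjusted p of 0.00782 in the added fit and 0.0703 in the main one.

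Hmox1, the haem oxygenase that is a standard target of the oxidative stress factor NRF2 (chromosome 8), followed the same order. It held 155, 80.0 and 205 normalized counts at rest, 735, 1332 and 991 at rest in pregnancy, 846 to 1237 after injury and 1083 to 1953 after injury in pregnancy, at a position of 102%. Its interaction was -2.19 with an adjusted p of 0.0224 in the added fit. Tpbg, the trophoblast glycoprotein, and Eef1e1, a scaffold protein of the tRNA synthetase complex, completed the higher genes that the naming rule selected. Tpbg held 18.7, 70.0 and 132 normalized counts at rest and 231, 207 and 396 at rest in pregnancy, against 422 to 508 after injury. Eef1e1 lay at 192 ± 160 (SD, n = 3) at rest, 542 ± 147 (SD, n = 3) at rest in pregnancy, 762 ± 123 (SD, n = 6) after injury and 517 ± 77.4 (SD, n = 6) after injury in pregnancy, so that pregnancy raised it at rest and lowered it after injury.

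Genes that fall on activation and were already low at rest in pregnancy were led by Adamts20, at a position of 52.8%. Such a fall crosses the kits, and across genes the activation difference without pregnancy had a Spearman's rho of -0.621 with genomic span. The part of kit and gene length in these falls was not tested. BC052040, a gene without an assigned role here, held 724, 782 and 578 normalized counts at rest and 147, 88.2 and 266 at rest in pregnancy, against 116 to 199 after injury, a position of 94.7%. Adrbk2, the receptor kinase also named Grk3, held 251, 314 and 298 normalized counts at rest and 113, 106 and 96.6 at rest in pregnancy, against 73.6 to 102 after injury. Zfp90, a zinc finger gene, the microtubule-severing gene Fign and Dagla, which makes an endocannabinoid, had positions of 51.7%, 54.8% and 127%. The calls of Zfp90 and Fign stood in 5 of 18 fits with a library left out, and those of BC052040 and Adrbk2 in 18 of 18.

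**Figure D3:**
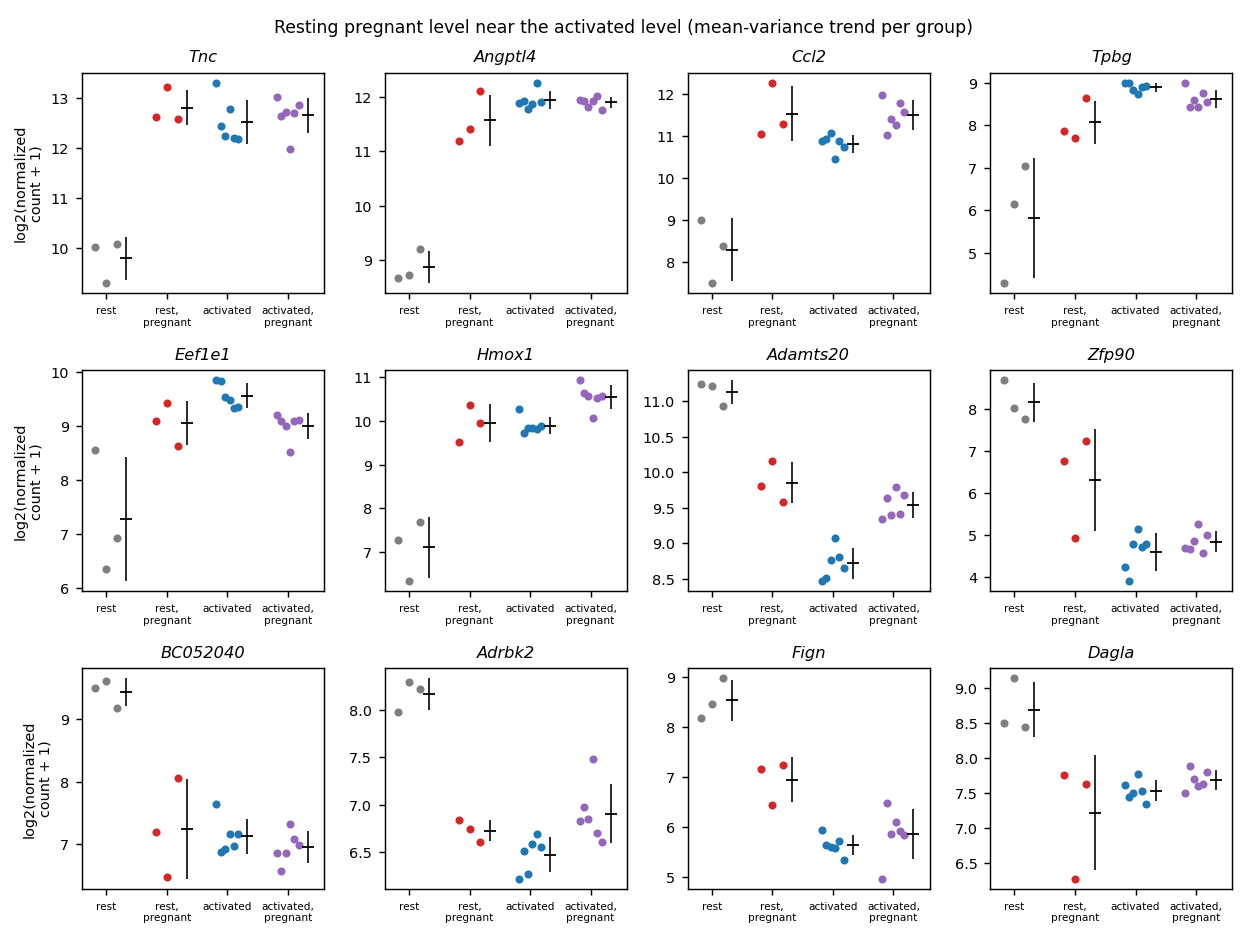
The 12 genes selected by the naming rule among those whose resting pregnant level approached the activated level are shown per library as log2 of the normalized count plus 1, with group mean ± SD (n = 3 at rest, n = 6 activated). In each panel the resting pregnant points do not overlap the resting ones, lying above them in the first 6 panels and below them in the last 6, on the side of the activated points.

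Myod1, a transcription factor of muscle commitment (ENSMUSG00000009471, chromosome 7), was raised by pregnancy at rest and not detectably after injury. It held 1299, 1295 and 1403 normalized counts at rest and 4518, 5186 and 5413 at rest in pregnancy, 3.78-fold more, while activated libraries held 8680.4 to 10767 (median 10037) and activated pregnant libraries 7661 to 13312 (median 10454). The resting pregnant level stood at 66.2% of the way on the log2 scale. The resting difference was called by both fits (1.92 ± 0.41, limma adjusted p = 0.0345 in the main fit), and the interaction of -1.83 by the added fit (adjusted p = 0.000207; main fit 0.0695). Of the related genes, Myog held 435 ± 406 and 126 ± 70.2 (SD, n = 3 each) at rest, and the interactions of Myog, Myf5 and Pax7 had adjusted p of 0.0993 to 0.793 in the added fit. Of 33 myogenic genes tested, Myod1 and Cdkn1a, a cell cycle inhibitor, were the 2 with a called interaction, both below 0, in the added fit (2.5% of all genes), and none in the main fit. Cdkn1a passed narrowly (adjusted p = 0.0499) and in 3 of 18 fits with a library left out, Myod1 in 18.

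Myod1 and its relatives bind the E-box, written CANNTG, so the 300 bases from 250 before to 50 after the start of 3 genes of different pattern were read from the RefSeq promoter table (GRCm38.p6), with each E-box in capitals. Tnc stands for a gene already near its activated level, Adamts20 for one that changed in opposite directions and Ntn4 for one raised at rest only. The window of Adamts20 lies within the deposited span of the gene, so it belongs to another start than the one at the end of that span.
Tnc, chr4:64046966-64047265, minus strand: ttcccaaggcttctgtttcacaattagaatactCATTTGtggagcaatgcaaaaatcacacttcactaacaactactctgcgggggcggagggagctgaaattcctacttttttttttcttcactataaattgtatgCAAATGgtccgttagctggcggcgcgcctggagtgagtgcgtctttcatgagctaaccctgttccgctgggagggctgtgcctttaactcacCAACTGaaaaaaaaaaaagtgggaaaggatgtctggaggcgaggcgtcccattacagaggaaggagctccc
Adamts20, chr15:94404301-94404600, minus strand: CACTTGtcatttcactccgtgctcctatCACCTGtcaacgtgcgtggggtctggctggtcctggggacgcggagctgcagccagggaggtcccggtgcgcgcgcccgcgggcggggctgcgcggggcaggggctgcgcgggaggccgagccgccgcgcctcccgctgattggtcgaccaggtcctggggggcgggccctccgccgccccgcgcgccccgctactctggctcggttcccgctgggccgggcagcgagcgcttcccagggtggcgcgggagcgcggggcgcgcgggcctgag
Ntn4, chr10:93640799-93641098, plus strand: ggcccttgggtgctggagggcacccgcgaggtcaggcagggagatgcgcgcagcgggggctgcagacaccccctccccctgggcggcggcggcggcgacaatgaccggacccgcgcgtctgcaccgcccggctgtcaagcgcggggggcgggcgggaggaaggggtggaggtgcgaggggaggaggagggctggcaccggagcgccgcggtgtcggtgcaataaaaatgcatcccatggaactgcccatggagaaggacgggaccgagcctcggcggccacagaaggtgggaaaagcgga

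The E-box letters read the same on both strands and were found 3 times in the window of Tnc, 2 times in that of Adamts20 and not in that of Ntn4. Such letters are common: 62.9% of the 8258 promoters found for genes tested held at least 1, against 15 of 26 promoters (57.7%) of the genes higher at rest that approached the activated level and 7 of 13 (53.8%) of the lower ones. The letters TGANTCA, bound by the AP-1 family to which Fosl1 belongs, also palindromic and able to share the letters CA with an E-box, were in none of the 3 windows. They were in 4.77% of all these promoters and in 2 of 26 (7.69%) of the higher approaching genes. A match is a description of these letters only.

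Of 41 immediate early and mitogen-feedback genes tested, 8 were higher and 1 lower in pregnancy at rest and 5 higher and 5 lower after injury in the added fit. Of the 41, 6 had a called interaction below 0 and none above in the added fit, against 2.5% of all genes below 0 and 2.03% above; none passed the main fit. Fosl1, an AP-1 subunit, held 2378, 2050.5 and 2240 normalized counts at rest and 8751, 8335 and 7505 at rest in pregnancy, while activated groups lay at 2747 ± 312 and 2680 ± 513 (SD, n = 6 each). The resting pregnant libraries exceeded every other library for Fosl1. Ier5, an early growth-response gene, held 2374 ± 662 at rest and 10924 ± 2802 at rest in pregnancy (SD, n = 3 each), against 5449 ± 889 and 6368 ± 1274 after injury (SD, n = 6 each). Dusp5, a phosphatase that switches off ERK, and Myc, a transcription factor of cell growth, were 3.09-fold and 2.27-fold higher at rest in pregnancy by the group means, with activated differences of -0.15 and 0.14. Ier3 had an interaction of -1.45 (adjusted p = 0.0303 in the added fit). The median interaction of the list was -0.32, beside 0.05 for all genes tested, and -0.11 after removal of the trend with gene length.

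Of 27 chemokines and targets of the inflammatory factor NF-kB tested, 9 were higher in pregnancy at rest and 12 after injury in the added fit. None was lower in pregnancy, and 4 interactions were called, all below 0. The shares of all genes in these directions were 3.57%, 13.8% and 2.5%. Cxcl1, a neutrophil chemokine, held 6434, 4866 and 6180.3 normalized counts at rest and 22398, 52014 and 23698 at rest in pregnancy. After injury it held 7142 to 10559 (median 8064) without and 10338 to 23614 (median 12782) with pregnancy. Tnfaip2, a gene induced by tumour necrosis factor, held 36.3, 148.5 and 149 normalized counts at rest, 503, 1058 and 825 at rest in pregnancy, 251 to 393 after injury and 457 to 617 after injury in pregnancy. Groups did not overlap in either pair for Tnfaip2, and its interaction of -2.18 had an adjusted p of 0.0251 in the added fit. Leukocyte marker sums, given above, were higher in pregnancy after injury. With that sum as a covariate in the added fit, the interaction of Ccl2 had an adjusted p of 0.0495, that of Tnfaip2 0.0047 and that of Cxcl1 0.431.

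The oxidative stress list had 26 genes tested, with 5 interactions below 0 and 1 above in the added fit (2.5% and 2.03% of all genes) and a median interaction of -0.53. Beside Hmox1, Srxn1, which repairs oxidized peroxiredoxins, held 2926, 2169.8 and 2441 normalized counts at rest and 8260.1, 7265 and 7874 at rest in pregnancy, with activated groups at 2525 ± 291 and 2778 ± 497 (SD, n = 6 each). Txn1, thioredoxin, was 2.09-fold higher at rest in pregnancy at a position of 48.3%. The exception was Slc7a11, the cystine importer, with 8893 to 11679 normalized counts at rest and 7104 to 10670.0 at rest in pregnancy, but 40.4 to 87.4 after injury and 72.4 to 146 after injury in pregnancy. It was 2.09-fold higher in pregnancy after injury only, on a level far below that of resting cells.

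Of 52 collagen and matrix genes tested, 39 were higher in pregnancy after injury and none lower in both fits (14.8% and 12.4% of all genes in the main fit, 13.8% and 11.4% in the added fit), while 6 were higher and 1 lower at rest in the added fit. Col3a1, a fibrillar collagen, held 31099.8 to 36948 normalized counts after injury in pregnancy against 16319 to 24285 without, and 11900.4 ± 2567 at rest against 13594 ± 9422 at rest in pregnancy (SD, n = 3 each). Its interaction of 0.73 ± 0.42 did not pass (limma adjusted p = 0.444), and for Col1a1 the interaction was 0.77 ± 0.75 (adjusted p = 0.683). In the added fit alone, a called interaction above 0 was found for Fbn1, a microfibril protein, and Col16a1, and one below 0 for Tnc and Vcan, a proteoglycan with 396 ± 109 and 1937 ± 494 normalized counts at rest without and with pregnancy (SD, n = 3 each). Fbn1 held 9676.5 to 12128 normalized counts at rest, 6625.6 to 10806 at rest in pregnancy, and 4162 ± 551 and 6176 ± 502 after injury without and with pregnancy (SD, n = 6 each). Of 17 markers of fibro-adipogenic progenitors, the connective-tissue cells of muscle, 11 rose and 1 fell in pregnancy after injury. Their summed level was 126000 to 197000 against 85600 to 109000, and 41400 to 76500 against 45300 to 54300 at rest. Of 10 tendon cell markers, which include Tnc, 8 were higher and none lower in pregnancy after injury in the added fit (13.8% and 11.4% of all genes). Their sum after injury was 57700 to 138000 with and 38700 to 77000 without pregnancy. The part of either cell type in the matrix result was not tested.

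Among matrix-degrading enzymes, Plaur, the urokinase receptor, held 1469.7, 898 and 929.5 normalized counts at rest and 4297, 3424 and 2889 at rest in pregnancy, against 868 to 1357 and 1244 to 1612 after injury. Plau, urokinase itself, was 2.77-fold higher at rest in pregnancy and 1.21-fold higher after injury, and both resting differences were called by the main fit (limma adjusted p = 0.0345 and 0.0441). The aggrecanase Adamts4 was 2.19-fold higher at rest. Of 30 proteases and inhibitors tested, 4 interactions were below 0 and 2 above in the added fit (2.5% and 2.03% of all genes), and 1, Adamts20, in the main fit (0.112%).

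For a class of pregnancy differences called after injury and not at rest, the rule required a called interaction, a called activated difference, and a resting difference that was neither called nor as large as 1.5-fold. No gene met it in the main fit, and 83 did in the added fit, 55 higher and 28 lower in pregnancy. A resting 95% interval within -1 to 1 was found for 79 of the 83. That range is wide beside the differences themselves, whose median size was 0.36 at rest and 0.37 after injury on the log2 scale. At rest 54 of the 83 had estimates below 0 and 29 above, so most lay opposite to the activated difference. Both sides thus enter these interactions, and a resting change was not called rather than shown to be absent. In the section on processing this class is named after injury only, by its calls. With the leukocyte covariate the class held 1 gene, and 44 to 190 with 1 library left out. Under CPM it held 127 genes and under quantile normalization 193.

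Mllt4, afadin of cell-cell junctions (ENSMUSG00000068036, chromosome 17), had the lowest adjusted p of the genes named in this class. Activated libraries held 415 to 653 normalized counts (median 610.2) and activated pregnant libraries 1136 to 1327 (median 1251), while resting libraries held 2290.4, 2749.9 and 2583 and resting pregnant ones 2497, 1852 and 1902. The activated groups lay far apart and the resting groups overlapped. The interaction of 1.41 was called in the added fit (limma adjusted p = 0.000973, and 0.0415 with the leukocyte covariate), with 0.0966 in the main fit.

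Col16a1, a collagen that links fibrils to other matrix (ENSMUSG00000040690, chromosome 4), held 712 to 799 normalized counts after injury and 1274 to 1639 after injury in pregnancy, 1.94-fold more. At rest it held 837, 554 and 357 without and 463, 421 and 526 with pregnancy, in overlapping ranges. Zfp536, a zinc finger repressor, Fsd1l and the basement membrane protein Hmcn2 were 1.80-fold, 1.66-fold and 1.54-fold higher after injury in pregnancy. Hmcn2 held 74691 to 83477 normalized counts at rest, 51354 to 64281 at rest in pregnancy, 12959 to 23803 after injury and 24646 to 34498 after injury in pregnancy. Each pair of Hmcn2 groups was without overlap, in opposite directions, although its resting difference of -0.47 passed neither fit.

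The lower genes of this class that the rule selected were Ndufa9, a subunit of respiratory complex I, Cct7, a subunit of the cytosolic chaperonin, G3bp1, a stress-granule protein, Nhp2l1, a small-RNA binding protein also named Snu13, Rpl7l1 and 4930453N24Rik. Ndufa9 held 1262 to 1575 normalized counts after injury and 1005 to 1215 after injury in pregnancy, and 603, 567 and 400.4 at rest against 805, 761 and 689 at rest in pregnancy. Cct7 held 8048 to 10989 after injury and 5544 to 7770.1 in pregnancy. All 6 were 1.23-fold to 1.33-fold lower after injury by group means, and all 6 had resting estimates above 0, of 0.35 to 0.54. For 4930453N24Rik, Ndufa9 and G3bp1 the resting difference of 0.53, 0.54 and 0.46 exceeded the activated one of -0.33, -0.30 and -0.33 in size. A resting change was thus not called rather than shown to be absent. The calls of Nhp2l1 and 4930453N24Rik stood in 8 and 5 of 18 fits with a library left out.

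**Figure D4:**
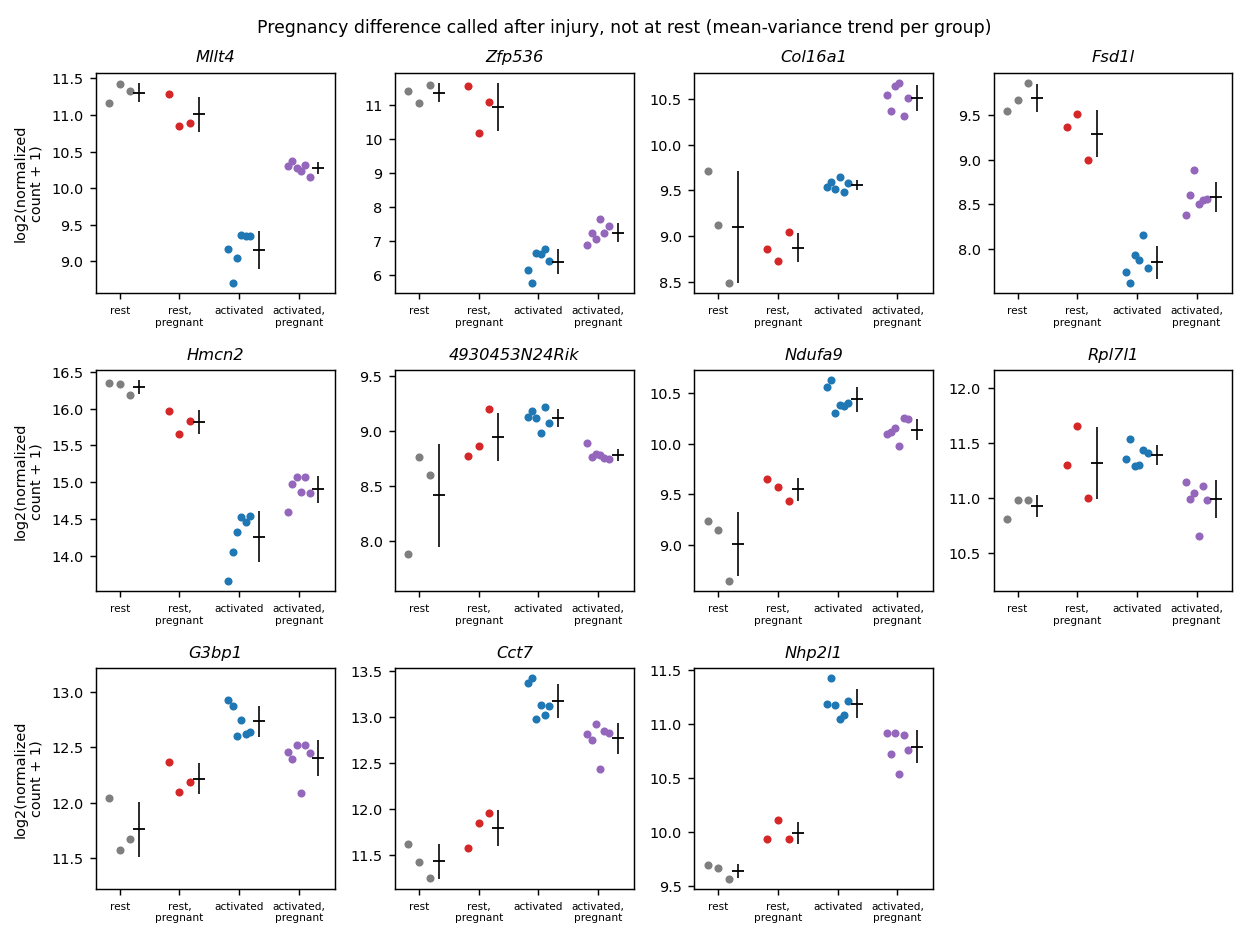
Genes selected by the naming rule among those with a pregnancy difference called after injury and not at rest are shown per library as log2 of the normalized count plus 1, with group mean ± SD (n = 3 at rest, n = 6 activated). The activated pregnant points stand apart from the activated points in each panel, above them in the first 5 and below them in the last 6, while no resting difference was called. In the last 6 panels the resting mean is higher with pregnancy.

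Of 33 ribosome biogenesis genes tested, all 33 had activated estimates below 0 and 27 had resting estimates above 0, with medians of -0.26 and 0.41. Of all 10751 genes tested, 5511 had activated estimates below 0, 5179 resting estimates above 0 and 4997 interactions below 0. The activated difference was called for 13 of the 33 in the added fit and 16 in the main fit, all lower (11.4% and 12.4% of all genes). At rest 1 of the 33 was called higher and 1 lower in the added fit, and none in the main fit. The interaction was called for Nip7, Rrs1 and Nolc1 in the added fit, all below 0 (2.5% of all genes). With the leukocyte covariate the median activated difference was -0.06 (28 of 33 below 0) and the median interaction -0.29, from -0.62, and these 3 genes had adjusted p of 0.0615, 0.172 and 0.273 in the added fit. The covariate differed between the activated groups without overlap, so these shifts cannot be assigned to leukocyte content or to pregnancy. Nip7 held 613, 228 and 206 normalized counts at rest and 707, 989 and 594 at rest in pregnancy, 1247 to 1638 after injury and 899 to 1282 after injury in pregnancy. All 69 genes tested whose symbols matched cytosolic ribosomal proteins had interactions below 0, with a median of -0.41. That was 68 of 69 with CPM, 53 of 69 with the leukocyte covariate and 58 of 69, with a median of -0.16, after the trend with gene length was removed. Of the 69, the only one called in the added fit was Rpl7l1 (adjusted p = 0.0263), by name an L7-like protein rather than L7 itself. None was called in the main fit (Rpl7l1 0.22). Medians were -0.38 for 61 mitochondrial ribosomal proteins, -0.35 for 74 nuclear respiratory chain genes and -0.40 for 34 proteasome subunits. Of the 34, Psma5 and Psmd7 had called interactions in the added fit, both below 0 (2.5% of all genes). With the leukocyte covariate these medians were -0.20, -0.20 and -0.14, and Psma5 and Psmd7 had adjusted p of 0.175 and 0.189. Genes of a family share their libraries, so these counts are no set of independent observations.

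Gene length moved with the interaction. Across the 10751 genes, Spearman's rho of the interaction with genomic span was 0.180, that of the resting pregnancy difference -0.066 and that of the activated one 0.294. For the activation difference, which crosses the kits, rho was -0.621 without pregnancy and -0.564 with it. The activation difference without pregnancy is the denominator of every position given above. The median interaction was -0.15 for 2218 genes under 10 kb, 0.01 for 5088 genes of 10 to 50 kb, 0.16 for 2783 of 50 to 200 kb and 0.41 for 662 longer ones. Genes share libraries in this description, and no p is given. The part of gene length in single results was not tested beyond the fit with the length trend removed, which called 16 interactions.

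Several other lists had called interactions in the added fit. Among 24 glucocorticoid-responsive genes 6 were called below 0 and none above (2.5% and 2.03% of all genes), including Angptl4, the metallothioneins Mt1 and Mt2 and the transcription factor gene Cebpb, while the list's median was 0.14. Of 18 fits with a library left out, Cebpb was called in 5, Mt1 in 14 and Mt2 in 7, and with the leukocyte covariate their adjusted p was 0.255, 0.441 and 0.549. Dnmt3a, which sets DNA methylation, held 2878.5, 2075 and 1882 normalized counts at rest and 1079, 1008 and 1198 at rest in pregnancy, against 576 to 789.8 and 687 to 836 after injury. Its resting groups did not overlap, its position was 61.3%, and its interaction of 1.20 had an adjusted p of 0.00488 in the added fit. Dnmt3b held 141, 148 and 102 normalized counts at rest and 68.6, 24.7 and 56.6 at rest in pregnancy and had an interaction of 1.64 that did not pass (adjusted p = 0.0946). The chaperone gene Hsp90aa1 and its partner Stip1 had interactions of -0.84 and -0.69, called in 18 and 3 of 18 fits with a library left out, the latter at an adjusted p of 0.0499. Nfia, a transcription factor of the quiescence list, and Dtx4, of the Notch pathway, had interactions of 0.94 and 0.85. The secreted protease Bmp1 was 1.60-fold higher after injury in pregnancy, with an interaction of 0.77.

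Lists without a called interaction in either fit included the interferon response (43 genes tested), S phase (26) and G2 and M phase (21). Of the interferon genes, 6 were higher in pregnancy at rest and 15 after injury in the added fit, against 3.57% and 13.8% of all genes, with medians of 0.92 and 0.31 and 34 of 43 interactions below 0. With the leukocyte covariate the median activated difference of the interferon genes was -0.01 (23 of 43 below 0). The division genes were near the detection limit at rest: Cdc6, a replication licensing factor, held 56.0 ± 18.7 and 4.86 ± 8.42 normalized counts at rest without and with pregnancy (SD, n = 3 each), and Birc5, survivin, 32.0 to 90.3 and 1.18 to 22.2. Their interactions of 4.03 and 2.90 were not called (adjusted p = 0.108 and 0.0715 in the main fit, 0.661 and 0.454 in the added fit). All 11 leukocyte markers rose after injury in pregnancy in both fits and none at rest, with a median interaction of 2.27 and no called interaction. Among them H2-Ab1, of the class II antigen-presenting complex, held 45.2, 14.6 and 25.6 normalized counts at rest, 11.2, 0 and 0 at rest in pregnancy, 31.0 to 90.9 after injury and 104 to 500.4 after injury in pregnancy. After injury Cd74 was higher in pregnancy by 2.15 ± 0.45 and Lyz2 by 1.81 ± 0.36.

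**Figure D5:**
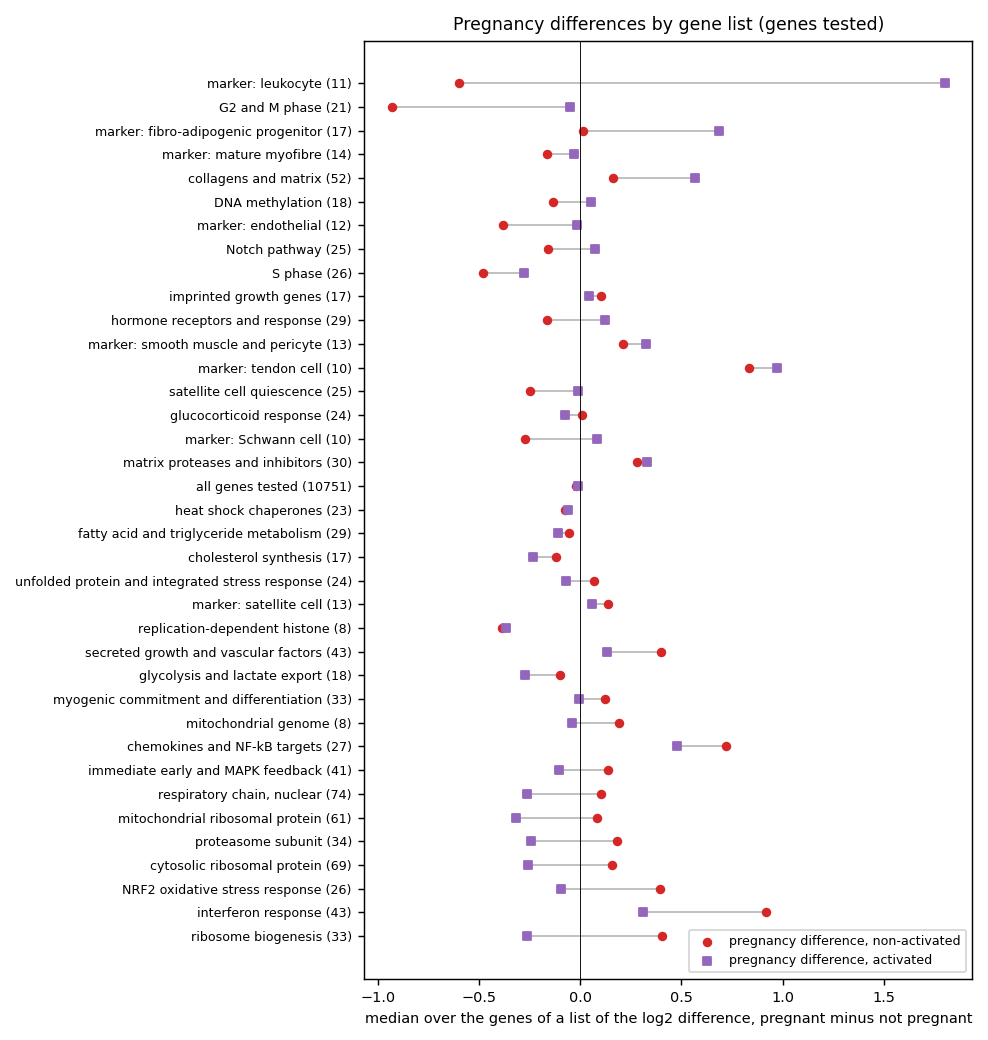
For each gene list with at least 8 genes tested (number in brackets) the median log2 pregnancy difference is plotted at rest (red) and after injury (purple), ordered by the median interaction. Leukocyte markers lie at the top, with medians of -0.60 and 1.80, and ribosome biogenesis at the bottom, with 0.41 and -0.26; no list was tested as a set.

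Pregnancy differences of opposite sign, both called, were found for 2 genes in the main fit, Sox9 and Zadh2, and for 32 in the added fit. Beside Adamts20 and Eef1e1, the largest were Lsmem1 and Cdan1. Lsmem1, a membrane protein gene, held 1683, 1893 and 1568 normalized counts at rest and 787, 588 and 348.5 at rest in pregnancy, but at most 6.37 after injury and 14.1 after injury in pregnancy. Its activated change is thus one between very low counts. Cdan1, a gene mutated in a congenital anaemia, held 947, 730.2 and 890.4 normalized counts at rest, 425, 158 and 246 at rest in pregnancy, 339.6 to 412 after injury and 427 to 681 after injury in pregnancy, without overlap in either pair. In the added fit 257 genes had a called resting difference and an activated one that was neither called nor 1.5-fold. Another 35 had called differences of the same sign and unequal size. These classes hold only genes with a called interaction, whose error (median SE 0.34) is almost that of its resting side (0.32). Class sizes therefore cannot be compared as frequencies. The same fit called the pregnancy difference itself for 638 genes at rest and 2717 after injury.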

How the data were processed

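RNA of sorted satellite cells was sequenced in 18 libraries. Counts, normalized counts, log2 fold changes and adjusted p-values were deposited by the authors in 1 table, per the file headers. Genes without values carry a question mark there, so the columns were recorded as other than plain counts and no count model was run. Cutadapt 1.12, TopHat2 2.0.14, HTSeq 0.6.0, DESeq2 1.22.1 and build GRCm38 are named per the submitters' processing notes, without order or settings; strand use is not given in the sources used here. Each normalized count deposited by the authors was the count over 1 factor per library. Another 6 columns, of 3 quadriceps libraries, were not used.

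Values were log2(normalized count + 1). One limma 3.58.1 fit (R 4.3.3) of all 4 groups, with the mean-variance trend and 1 variance factor per group, gave every contrast, with Benjamini-Hochberg adjustment over 10751 genes and a threshold of 0.05. The fit with a trend per group was added later. Both fits were run on simulated data in which the 2 resting groups had equal means and equal spread. The fitted factors of these groups were 2.97 and 4.87, so that run cannot decide between the fits. Fold changes are ratios of group means. Named genes were first those called in the main fit. Next came, in each direction, the 6 with the largest interaction among genes near the activated level. The same was done among genes with a difference called after injury and not at rest. In these classes the defining pair of groups did not overlap and the highest group mean was at least 100. The 4 largest of opposite sign and up to 4 per gene list were added. One gene so selected is not reported here. Other list members were named after their values were seen. Members, classes and lists were chosen with earlier results of these data known. Tables were built with pandas 2.3.3 under Python 3.11.15. RefSeq promoters were found for 8258 genes.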

Additional observations from a re-analysis of the deposited data

Results flagged for a closer look

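The interaction itself marks genes whose pregnancy difference is unequal at rest and after injury by a test. On the log2 scale it was -2.73 for Angptl4, -2.61 for Rnd1, -1.69 for Ntn4, -1.53 for Sox9, -1.50 for Zadh2, -1.44 for Vmp1 and -1.23 for Etfa. It was 2.10 for Adamts20, 4.29 for Zfp141, 4.49 for Hmgn5, 4.80 for Zfp658 and 5.63 for Ifi205.

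In 12 of 158 gene and group combinations with 6 libraries, 1 library lay far from the others (Dixon's test); chance gives about 1 in 20. Activated pregnant replicate 4 was the library in 5 of them: it held 177 normalized counts of Adrbk2, above the others, and was below them with 366 of Eef1e1, 4355 of G3bp1, 1614 of Rpl7l1 and 1193 of Vcan. Activated replicate 1 stood apart with 199 of BC052040, 1237 of Hmox1 and, on the low side, 3332 of Dtx4. Single cases were 4909 of Angptl4 in activated replicate 5, 3406 of Lyz2 in activated pregnant replicate 2, and 474 of 4930453N24Rik and 3690.0 of Fosl1 in activated pregnant replicate 1.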

How the results depend on the processing

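Of the main fit's calls, 12 interactions, 72 resting and 2929 activated pregnancy differences, 7173 and 6107 activation differences without and with pregnancy, and 2 genes near the activated level, 0 after injury only, 6 at rest only, 2 opposite and 1 of the same sign served as the base. A common spread gave 1620 interactions, 2485 resting and 578 activated differences, with 229 near the activated level, 121 after injury only, 1166 at rest only, 38 opposite and 21 of the same sign. A trend per group gave 487 and 638, with 60, 83, 257, 32 and 35. Quantile normalization gave 113 and 156, with 30, 6, 62, 8 and 8. Voom gave 61 and 173, with 16, 3, 38, 6 and 3. For the classes near the activated level, at rest only, opposite and same sign, a pseudocount of 5 gave 15, 40, 6 and 5 (61 interactions, 141 resting) and a filter at 50 gave 12, 37, 6 and 5 (60 and 131). The replicate block gave 24 interactions, with 9, 11, 7 and 3. Deviations of same-numbered libraries from their group means correlated at -0.175 to 0.151. Differently numbered libraries were not compared, so these values cannot decide whether a shared number marks a shared animal or batch. Robust moderation gave 24, with 4 near the activated level, 14 at rest only and 2 of the same sign. With the span trend removed, rho with span was -0.018, 1 gene lay near the activated level and 2 had the same sign. The leukocyte covariate gave 1 interaction, 31 resting, 182 activated and 3256 activation differences with pregnancy, with 1, 1, 0 and 0. Testing beyond 1.5-fold gave 2, 3 and 7, activation counts of 4537 and 3649, and classes of 1, 2, 0 and 0. Leaving out 1 library gave 2 to 64 interactions (0 to 84.2% above 0), 9 to 130 resting, 2012 to 2969 activated, 5722 to 7431 and 4688 to 6198 activation calls, 1 to 12 near the activated level, 0 to 1 after injury only, 2 to 37 at rest only, 0 to 9 opposite and 0 to 5 of the same sign, and rho of 0.143 to 0.231.

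In the trend fit, the leukocyte covariate gave 94 interactions, 1574 resting and 147 activated differences, with classes of 37, 1, 73, 3 and 2; the replicate block gave 593 interactions and 1801 activated differences. After injury only held 127 genes with CPM and 193 with quantiles. Leaving out 1 library gave 300 to 967 interactions, 411 to 1023 resting and 1791 to 2816 activated differences, with classes of 40 to 125, 44 to 190, 161 to 483, 16 to 69 and 16 to 55. In the main fit with the leukocyte covariate the interaction of Lyz2 was -0.14. Lyz2 is 1 of the markers summed into that covariate, so its interaction there is drawn toward 0 by construction. The cause of these moves was not tested. Resting groups of 3 libraries limit every interaction.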
